A study of Mus musculus with 70 samples.

Results

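Regulatory T cells (Tregs) that carry the IL-33 receptor ST2 were compared between the lungs and the abdominal visceral adipose tissue (VAT) of the same mice. The members are the 5 lungs and 5 VAT libraries labelled ST2+ CD44hi, each kept because its gene counts summed to more than 1000000. They are 10 of the 67 libraries kept among the 70 analysed here, which cover ST2+ CD44hi and ST2- CD44hi Tregs of blood, spleen, lungs, VAT, colon and skin and, in spleen and lungs, also CD44lo Tregs without ST2. All came from 5 male Foxp3-YFP-cre mice (allele Foxp3tm4(YFP/icre)Ayr on the B6.129(Cg) background of the strain name), aged 16.6, 17.1, 17.4, 18.1 and 18.6 weeks and numbered 1 to 5 here. Every mouse gave 1 library of each group sorted from each tissue. The knock-in allele places a fusion of YFP and Cre recombinase under Foxp3 control, so YFP reports Foxp3 expression, and every group carries it, ST2- groups included. For each of these 10 libraries 220 live CD4+ cells positive for CD45.2, YFP and ST2 and high for CD44 were sorted, with cells of other lineages excluded by surface markers, and their RNA was amplified and sequenced as full-length cDNA. Lung cells were enriched for CD4+ T cells on magnetic beads before the sort and VAT cells were not, so an effect of this step cannot be told apart from the tissue.

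Foxp3 is the transcription factor that defines Tregs, which restrain immune responses and also support tissue repair and metabolism. ST2, encoded by Il1rl1, binds IL-33, an alarmin that stromal and epithelial cells release, and IL-33 promotes the growth and maintenance of ST2+ Tregs. VAT Tregs are known for PPARγ, a lipid-sensing nuclear receptor, and for IL-10, whereas lymphoid-type T cells keep the receptors CCR7 and S1PR1, with which they pass between blood, tissue and lymph.

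The 5 lungs libraries of mice 1 to 5 held 2279569, 2039002, 2276485, 1524842 and 2354863 counts in genes, and the VAT libraries held 2504324, 1754667, 2235166, 2206881 and 1535947. Totals did not differ beyond their spread (exact two-sided permutation test, p = 0.857; the smallest p that 5 against 5 allows is 0.00794). Genes with at least 1 count numbered 13761 to 15056 in lungs and 12232 to 14618 in VAT (means of 14403 and 13669; exact permutation test, p = 0.167). The VAT library of mouse 2 detected the fewest genes and stood apart on the first principal component, which held 24.4% of the variance: its score was -130.0, against -38.5 to 3.55 in the other VAT libraries and 33.3 to 41.8 in lungs. Ranked gene levels correlated more closely within lungs (median Spearman rho across genes = 0.943 over 10 pairs) than within VAT (0.904), a value close to that between the tissues (0.902 between different mice and 0.909 within a mouse). Results were therefore also computed without the VAT library of mouse 2.

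The sort labels were checked against the genes they rest on. Il1rl1 was at 907 CPM (counts scaled to a common library size of 1e+06) in lungs and 1222 CPM in VAT ST2+ Tregs, against 5.11 and 14.5 CPM in the ST2- CD44hi Tregs of these tissues. Foxp3 measured 205, 176, 199.8, 225 and 183 CPM in the lungs of mice 1 to 5 and 159.7, 165, 243, 176 and 163 CPM in VAT, and the groups overlapped. Cd8a and Pax5, which mark CD8 T cells and B cells, were at 0 in all 10 libraries. Other genes linked to these cells were present in all 10: Cd8b1, the CD8 β chain, measured 40.7, 23.9, 54.3, 39.6 and 28.8 CPM in lungs and 100.03, 58.2, 74.7, 19.7 and 27.1 CPM in VAT. Cd79b, a chain of the B cell receptor, measured 51.1, 23.4, 57.1, 47.4 and 46.5 CPM in lungs and 48.6, 51.6, 22.9, 77.1 and 83.3 CPM in VAT, and for both genes the tissues overlapped. Of 15 genes of T cell and Treg identity, 14 did not pass the test described next, among them Foxp3, Cd3e, Cd4, Ctla4 and Ikzf2, and 1, Il2ra, was higher in VAT, against 1.28% of all genes.

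Lungs and VAT ST2+ Tregs differed in a minority of genes, with more genes higher in lungs. A gene was counted as a differentially expressed gene (DEG) at a change of at least 1.5-fold and an adjusted p of at most 0.05 in the quasi-likelihood test of edgeR, with p-values adjusted by Benjamini-Hochberg over 13191 protein-coding genes. There were 493 DEGs (3.74% of the genes tested), of which 324 (2.46%) were higher in lungs and 169 (1.28%) in VAT. All 5 mice moved the same way for 397 DEGs, and for 305 the lungs and VAT libraries did not overlap, against 4.86% of all genes tested (2.56% with lungs above VAT and 2.3% with VAT above lungs). The DEGs were chosen on these same libraries, so both counts are in part fixed by that choice. Changes of at least 4-fold were seen in 158 DEGs, 94 higher in lungs and 64 in VAT. Of the 493 DEGs, 29 were at 0 in every VAT library and 32 in every lungs library. The folds of those genes are fitted values that depend on the prior count. Each VAT and lungs library pair came from a separate mouse, but the fit held no term for the mouse. Its spread estimate was shared by all 14 groups, so the p-values do not measure how the lungs-VAT difference varied between animals. The number of DEGs fell to 387 without the VAT library of mouse 2, of which 335 were among the 493, and to 326 without the VAT library of mouse 5; those higher in VAT fell to 107 without the VAT or without the lungs library of mouse 5. A total of 171 DEGs higher in lungs and 70 higher in VAT passed with each of the 10 libraries left out in turn. The excess of lungs DEGs was absent in limma voom with quality weights, the study's own method (294 higher in lungs and 285 in VAT), and in an edgeR fit of the compared libraries alone (133 and 140). In sorted bulk samples, fewer cells expressing a gene and less RNA of it per cell cannot be told apart.

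**Figure D1:**
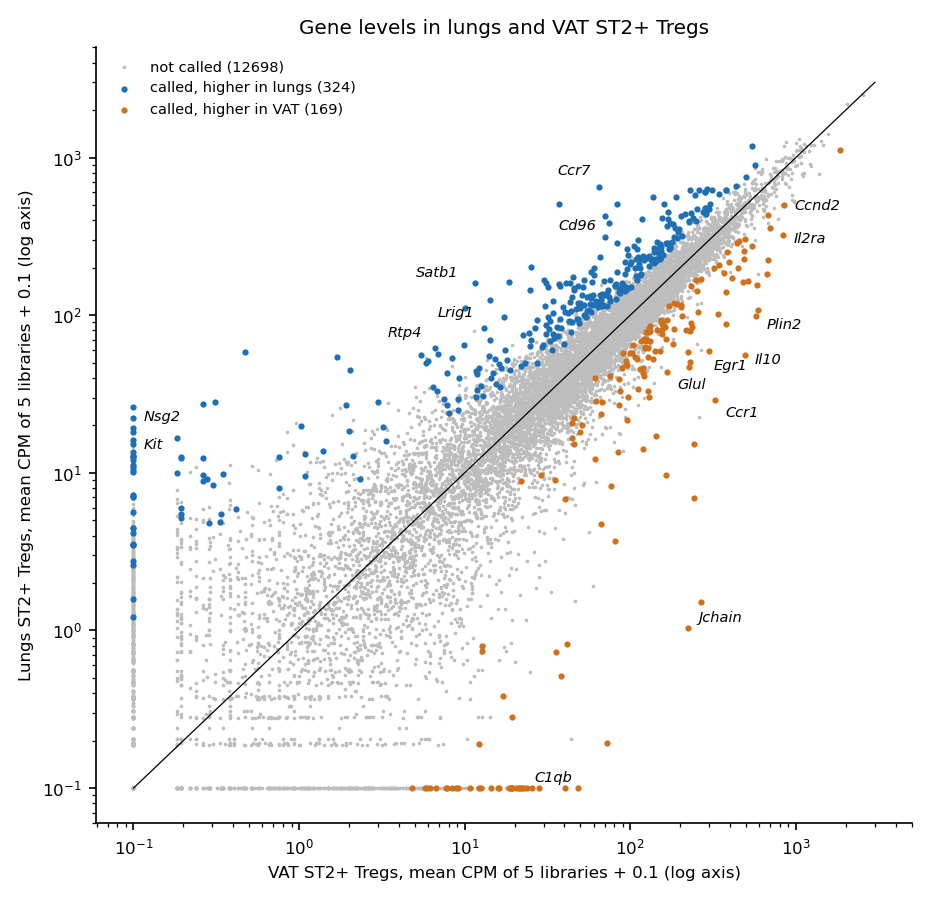
Mean level of each tested gene in VAT (horizontal) and lungs (vertical) ST2+ Tregs, in CPM with 0.1 added so that genes at 0 can be drawn on the log axes; the line marks equal levels. The 324 DEGs higher in lungs lie above the line and the 169 higher in VAT below it, and named genes are those described in the text.

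Genes of T cell quiescence and lymphoid recirculation were the group with the most DEGs higher in lungs. Of 16 genes in this list, 11 were higher in lungs (against 2.46% of all genes), none was higher in VAT, and the list's median log2 fold change was 1.01, against 0 over all genes. Among the trafficking receptors, Ccr7, the receptor that guides T cells to lymph nodes, measured 677, 613, 523, 803 and 619 CPM in the lungs of mice 1 to 5 and 50.6, 27.9, 25.7, 167 and 52.8 CPM in VAT. Every lungs library lay above every VAT library, and the log2 fold change (lungs over VAT) was 3.31 ± 0.46 (SE; edgeR's quasi-likelihood test, adjusted p = 9.41e-07); without VAT mouse 4, the highest VAT library, it was 4.04. S1pr1, the receptor for lymph and blood exit signals, was at 672, 640.3, 590.2, 575 and 641 CPM in lungs and 338, 305, 159, 209 and 138 CPM in VAT, 2.71-fold higher in lungs (adjusted p = 4.16e-07). The lowest lungs library exceeded the highest VAT library.

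Of the transcription factors of this list, Tcf7, Lef1, Foxo1, Satb1, Bach2, Klf2 and Klf3 were higher in lungs. Tcf7, which encodes TCF1, a factor of naive and memory T cells, measured 319.6, 347, 351, 246 and 306 CPM in lungs and 133, 45.7, 33.6, 99.2 and 38.9 CPM in VAT (log2 fold change 2.15 ± 0.33, adjusted p = 7.68e-06). Its relative Lef1 was 2.16-fold higher in lungs (216 ± 39.9 against 100.3 ± 31.4 CPM, mean ± SD, n = 5 mice; adjusted p = 0.000184 by edgeR), and Foxo1, which drives Il7r in resting T cells, was 1.80-fold higher (adjusted p = 1.94e-05). Satb1, an organiser of chromatin in T cells, was at 159.5 ± 20.3 CPM in lungs and 11.4 ± 11.7 CPM in VAT, a log2 fold change of 3.73 that rose to 4.61 without VAT mouse 1. Bach2, a repressor of effector genes, was at 28.2 against 2.91 CPM (log2 fold change 3.14, and 4.48 without VAT mouse 1). For neither gene did the lungs and VAT libraries overlap. Klf2, which activates S1pr1, was 1.65-fold higher in lungs (adjusted p = 0.00395). Itga6, the integrin α6 chain, was 1.88-fold higher, but with single libraries left out its call was lost without lungs mice 1, 2, 3 or 5 or VAT mice 2, 3 or 5 (adjusted p = 0.0678 to 0.151). The other 10 calls of the list held with each single library left out. Klf2 lost its call when all libraries of mouse 4, in every group, were left out (adjusted p = 0.078). In edgeR on the compared libraries alone 9 of the 16 passed, and Bach2 (adjusted p = 0.114) and Itga6 (0.089) did not; 10 passed in limma voom with quality weights. Foxp1, Id3, Il7r, Cd69 and Klf6 did not pass, with log2 fold changes of 0.44, 0.20, 0.15, -0.53 and -0.48; CD69 opposes S1PR1 at the cell surface.

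Klf3, a zinc finger repressor that binds CACCC boxes and is itself controlled by other Krüppel-like factors in some cells, measured 419, 370.4, 377, 335 and 528 CPM in lungs and 158, 219, 51.8, 73.3 and 89.5 CPM in VAT. The groups did not overlap, and Klf3 was 3.44-fold higher in lungs (log2 fold change 1.78 ± 0.23, adjusted p = 9.05e-08). Because Klf2 and Klf3 are both in this group and recognise this short motif, the 250 bases before the Klf3 start are shown (RefSeq, GRCm38.p6, chr5:64803271-64803520, plus strand), with each CACCC, or GGGTG where it lies on the other strand, in capitals:
Klf3 promoter: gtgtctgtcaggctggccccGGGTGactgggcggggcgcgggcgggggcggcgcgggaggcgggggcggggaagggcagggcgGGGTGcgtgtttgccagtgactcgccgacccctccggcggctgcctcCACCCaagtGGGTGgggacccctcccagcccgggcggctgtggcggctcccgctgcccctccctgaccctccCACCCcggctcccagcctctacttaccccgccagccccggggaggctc
This window holds 5 matches. At least 1 match is found in 52% of the 32851 promoter windows of this length in the same RefSeq table and 5 or more in 0.667%; a match describes the letters only. Of the 15 DEGs in the recirculation, fatty acid and tissue Treg factor lists, 9 matched the table.

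**Figure D2:**
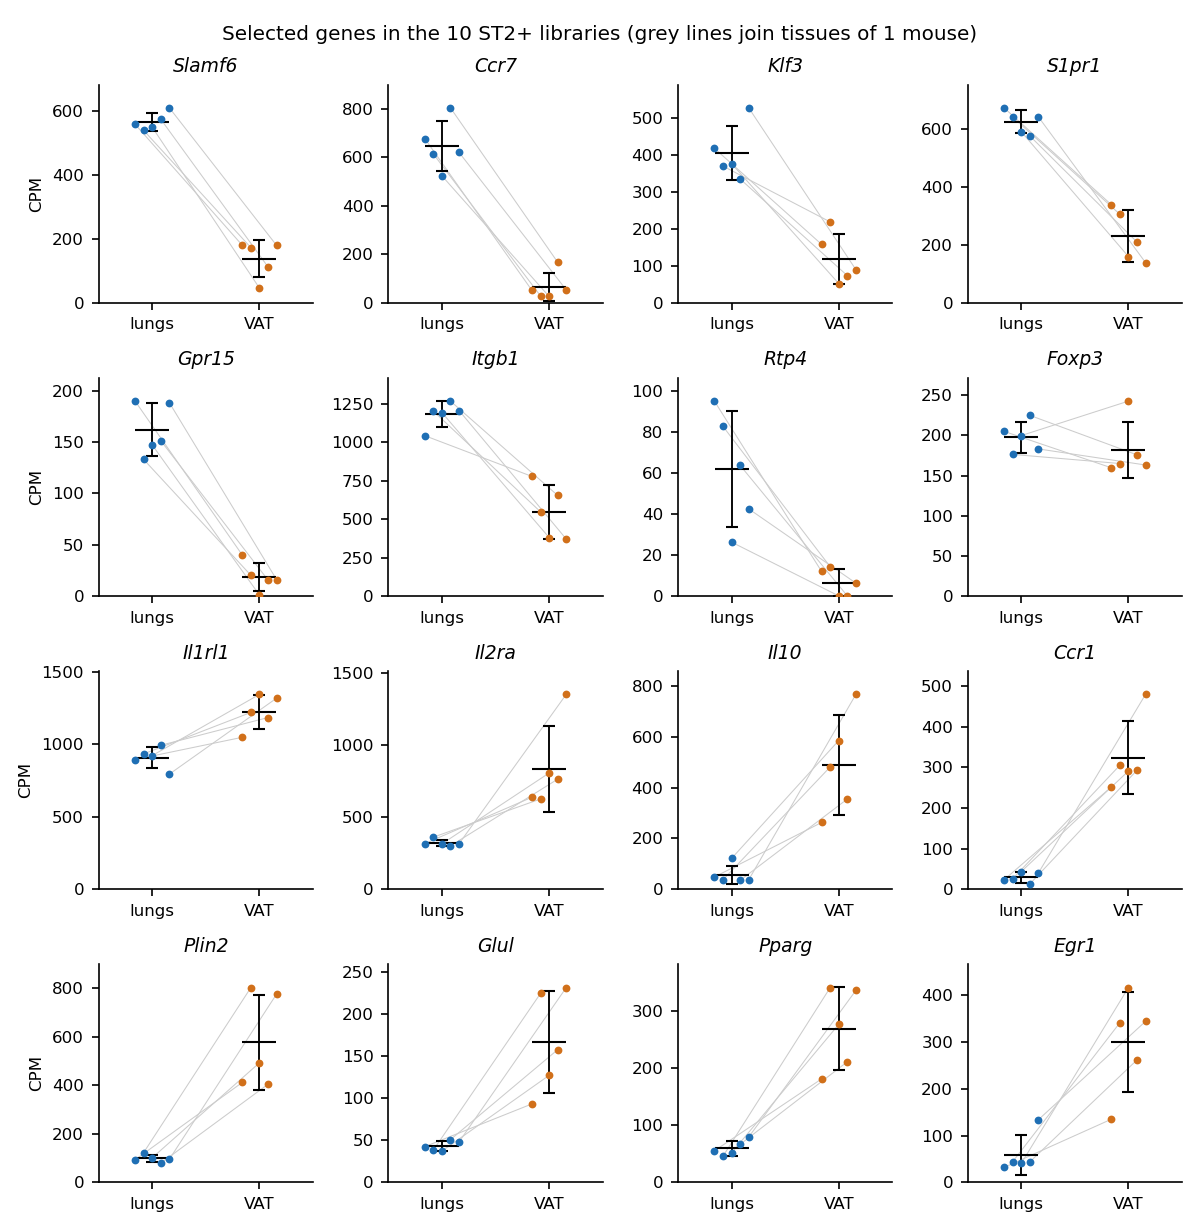
CPM of 16 genes in each of the 10 ST2+ libraries, with lungs in blue and VAT in orange; bars give the mean and SD of 5 mice, grey lines join the tissues of a mouse, and every vertical axis starts at 0. For 15 of the 16 genes no lungs library overlapped a VAT library, the exception being Foxp3; Il1rl1 and Pparg did not pass the test.

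Further genes higher in lungs were named for their small adjusted p and for the same direction in 5 of 5 mice. Slamf6 (ENSMUSG00000015314, GRCm38 chr1:171917515-171953170), a SLAM-family receptor of lymphocytes, measured 558, 538, 548, 573 and 609 CPM in lungs and 179, 172, 45.7, 112 and 179 CPM in VAT. It had the smallest adjusted p of all genes (5.16e-12, edgeR's quasi-likelihood test) at 4.12-fold. Cd96, a receptor of the nectin-binding family, measured 318, 380.2, 359.6, 472 and 377 CPM in lungs and 139.9, 71.2, 21.5, 121 and 16.7 CPM in VAT and was 5.08-fold higher in lungs (adjusted p = 4.1e-10). Slamf6 was lowest in VAT mouse 3 and Cd96 in VAT mouse 5, and neither overlapped between tissues. St6gal1, a sialyltransferase that modifies surface glycans, was 5.52-fold higher in lungs (adjusted p = 2.73e-10), Crlf3, a cytokine receptor-like protein, 1.99-fold (3.24e-10), Phlpp1, a phosphatase of AKT, 11.02-fold (2.17e-09), and Trib2, a pseudokinase, 3.96-fold (4.1e-08). Lax1, an adaptor that restrains antigen receptor signalling, was 3.81-fold higher and Ldlrad4, an inhibitor of TGF-β signalling, 3.29-fold higher (adjusted p = 4.99e-08 and 8.06e-07). Lrig1, which limits signalling by growth factor receptors, was at 129, 147, 122, 123 and 99.1 CPM in lungs and 24.3, 0.59, 14.01, 30.1 and 2.08 CPM in VAT, and Xrn2, a nuclear exoribonuclease, was 1.66-fold higher in lungs. Nsg2, known as a neuronal vesicle protein, was at 12.7, 25.5, 21.6, 20.5 and 15.9 CPM in lungs and at 0 in every VAT library, which places it at least 62.03-fold higher in lungs with a floor of 3 counts over the 5 VAT libraries.

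Receptors for chemokines and related ligands were divided between the tissues. Of 18 tested, 5 were higher in lungs (2.46% of all genes) and 1 in VAT (1.28%). Gpr15, a homing receptor of T cells of mucosal and skin surfaces, measured 190.1, 133, 147, 151 and 188 CPM in lungs and 39.9, 20.2, 0.93, 15.5 and 15.97 CPM in VAT, 8.66-fold higher in lungs (adjusted p = 0.0001). Gpr183, the oxysterol receptor EBI2, was 2.42-fold higher in lungs (263 ± 45.7 against 109 ± 40.3 CPM, mean ± SD of 5 mice; edgeR adjusted p = 3.93e-05). Ccr1, a receptor for inflammatory CC chemokines, went the other way: it measured 23.1, 25.5, 43.3, 12.7 and 39.8 CPM in lungs and 252, 305, 291, 293 and 479.7 CPM in VAT. The lowest VAT library lay far above the highest lungs library, and Ccr1 was 11.1-fold higher in VAT (adjusted p = 0.000983). Ccr6, the CCL20 receptor, was 3.70-fold higher in lungs but lost its call without lungs mice 4 or 5 or VAT mice 2, 3 or 5 (adjusted p = 0.0517 to 0.0704). Cxcr5 was at 0 in all VAT libraries and at no more than 6.24 CPM in lungs (at least 7.22-fold), and lost its call without lungs mice 2 or 4 or VAT mice 1, 2, 3, 4 or 5 (adjusted p = 0.0544 to 0.132). Ccr2, Ccr3 and Cxcr6 had log2 fold changes of -0.92, -1.51 and -0.93 with no overlap and did not pass in this fit (adjusted p = 0.215, 0.183 and 0.222); in limma voom with quality weights and in edgeR on the compared libraries alone these 3 were called higher in VAT. Without the VAT library of mouse 2 the counts were 3 and 1.

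The DEGs among integrins and TNF receptors were higher in lungs. Of 14 integrin genes, 3 were higher in lungs (against 2.46% of all genes) and none in VAT; Itga6, described above, was 1 of them. Itgb1, the β1 chain shared by many matrix-binding integrins, measured 1044, 1204, 1194, 1269 and 1208 CPM in lungs and 778, 548, 380.5, 655 and 371 CPM in VAT (2.16-fold, adjusted p = 0.000157). Itgae, which encodes CD103, the E-cadherin-binding chain, measured 340.4, 542, 414, 309.9 and 527 CPM in lungs and 195, 132, 1.40, 21.2 and 0 CPM in VAT. The VAT libraries of mice 1 and 2 held most of the VAT signal, those of mice 3 and 5 almost none, and the log2 fold change of 2.59 (adjusted p = 0.00256) became 3.48 without VAT mouse 1. Among 13 TNF receptor genes 1 was higher in lungs (against 2.46% of all genes): Fas, a death receptor, at 2.80-fold (adjusted p = 0.000168). In edgeR on the compared libraries alone Itgae (adjusted p = 0.143) and Fas (0.0705) did not pass, which left 1 integrin gene and no TNF receptor gene. Nt5e, the ectoenzyme CD73 that makes adenosine, measured 468, 657, 472, 500.3 and 438 CPM in lungs and 277, 186, 50.4, 172 and 108 CPM in VAT (3.19-fold, adjusted p = 1.39e-06). Cd83, a stabiliser of surface MHC class II that Tregs also express, was the DEG of 17 NF-κB subunits and feedback genes (2.46% of all genes were higher in lungs), at 2.67-fold higher in lungs (adjusted p = 0.0042). Its call was lost when all libraries of mouse 3, 4 or 5 were left out. DESeq2 called 2 genes of that list in each direction, and limma voom and edgeR on the compared libraries alone added Nfkbid in VAT. Il18r1, a chain of the IL-18 receptor, was 3.43-fold higher in lungs (287 ± 46.7 against 82.5 ± 70.7 CPM; adjusted p = 0.000366 by edgeR), and 2.39 on the log2 scale without VAT mouse 4, against 1.78 with it; it did not pass on the compared libraries alone (adjusted p = 0.0524). Of 10 receptors for lipid mediators, 3 were higher in lungs (2.46% of all genes), S1pr1 and the prostaglandin E2 receptors Ptger2 (2.41-fold; adjusted p = 0.0966 without mouse 2) and Ptger4, and 1, the leukotriene B4 receptor Ltb4r1, in VAT (1.28%). The Ptger4 call was lost without VAT mice 2 or 5 (adjusted p = 0.0639 to 0.065), and that of Ltb4r1 without lungs mouse 2 or VAT mouse 5 (adjusted p = 0.0513 to 0.0698).

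Interferon-stimulated genes with DEGs were also higher in lungs: 5 of 20 passed in that direction (against 2.46% of all genes) and none in VAT, with a list median log2 fold change of 0.71, against 0 over all genes. The count was 4 in limma voom with quality weights, 6 in DESeq2 and 1 in edgeR on the compared libraries alone. Rtp4, an interferon-induced chaperone, measured 95.1, 82.7, 26.2, 63.7 and 42.5 CPM in lungs and 11.9, 14.2, 0, 0 and 6.25 CPM in VAT (9.61-fold, adjusted p = 7.68e-06), with no overlap, and did not pass on the compared libraries alone (adjusted p = 0.069). Oas1a, a sensor of double-stranded RNA with close paralogs whose reads may have been shared, was 3.07-fold higher (adjusted p = 0.00612, 0.0635 on the compared libraries alone, and 0.102 and 0.0587 without mouse 2 or mouse 3). Irf9, a factor of the interferon response, and Gbp3, a guanylate-binding protein, passed in the full data but not without lungs mice 1 or 2 or VAT mice 3 or 5 (adjusted p = 0.0557 to 0.0894) and not without lungs mice 1, 2 or 3 or VAT mice 2, 3 or 5 (adjusted p = 0.0678 to 0.129), respectively. Isg15, Ifit3 and Mx1 did not pass, at log2 fold changes of 0.30, -0.80 and -2.27.

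Among genes higher in VAT, Il2ra and Il10 had the smallest adjusted p. Il10 (ENSMUSG00000016529, chr1:131019845-131024974), the anti-inflammatory cytokine of effector Tregs, measured 47.98, 36.9, 121, 34.7 and 37.2 CPM in lungs and 263, 481, 585, 355 and 767 CPM in VAT. The highest lungs library, mouse 3, lay below the lowest VAT library, and Il10 was 8.75-fold higher in VAT (log2 fold change -3.13 ± 0.37, adjusted p = 4.1e-08). Il2ra (ENSMUSG00000026770, chr2:11642807-11693193), the α chain CD25 of the high-affinity IL-2 receptor, measured 316, 361, 314, 301 and 315 CPM in lungs and 638, 626, 806, 763 and 1352 CPM in VAT. Lungs libraries were tightly grouped, VAT mouse 5 was the highest library, and the difference was 2.60-fold (adjusted p = 1.64e-08). Il2rb and Il2rg, the signalling chains, did not pass (log2 fold changes 0.09 and 0.07). Socs1 and Socs2, feedback inhibitors of cytokine signalling, were 1.97-fold and 2.26-fold higher in VAT (adjusted p = 0.000773 and 0.00173; without mouse 5 that of Socs1 was 0.0554). Il18r1, higher in lungs (2.46% of all genes), and Socs1 and Socs2, higher in VAT (1.28%), were the DEGs of 24 cytokine receptor and feedback genes; Il2ra was counted with the identity genes. Il10ra was added in VAT by limma voom with quality weights and by edgeR on the compared libraries alone. Il17rb, a chain of the IL-25 receptor named after its values were seen and also in the list of mast cell and ILC2 genes, measured 105, 77.5, 64.00, 54.5 and 92.5 CPM in lungs and 27.6, 0, 0, 29.1 and 0 CPM in VAT. The tissues did not overlap, and Il17rb did not pass (log2 fold change 2.77, adjusted p = 0.0631); it passed in limma voom with quality weights, in DESeq2 and in edgeR with the mouse as a block.

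Further genes higher in VAT were named by the same rule. Ccnd2, which encodes cyclin D2, was 1.69-fold higher (497 ± 67.6 CPM in lungs and 842 ± 59.6 CPM in VAT; edgeR adjusted p = 8.06e-07), the sole DEG of 20 cell cycle genes (1.28% of all genes), of which 16 had estimates on the lungs side, with a list median of 0.51. Cdkn1a, an inhibitor of cell cycle kinases, was added in VAT by limma voom with quality weights and by edgeR on the compared libraries alone. Glul, the glutamine synthetase gene, measured 42.5, 38.5, 37.3, 50.9 and 48.2 CPM in lungs and 93.4, 225, 127, 158 and 232 CPM in VAT, 3.84-fold higher in VAT (adjusted p = 9.97e-07). Tuba4a, an α-tubulin, was 1.83-fold higher, Plec, the cytoskeletal linker plectin, 1.96-fold, Eif4e3, a cap-binding protein, 2.62-fold, and Plp2, a membrane protein, 2.07-fold. Sertad1, a transcriptional cofactor, rose 2.57-fold, Rnf130, a ubiquitin ligase, 3.80-fold, and Serpinb6a, a protease inhibitor with close paralogs, 2.45-fold, with adjusted p from 7.68e-06 to 0.00039 for these 7 genes.

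Few genes of lipid handling passed. Of 23 genes of fatty acid uptake, storage and oxidation, 3 were higher in VAT (1.28% of all genes) and none in lungs, and the median log2 fold change was -0.10. Plin2, the coat protein of lipid droplets, measured 93.2, 123, 101, 79.3 and 95.6 CPM in lungs and 411, 801, 492, 404 and 775 CPM in VAT. No library overlapped, and Plin2 was 5.85-fold higher in VAT (log2 fold change -2.55 ± 0.50, adjusted p = 0.000451). Fabp5, a fatty acid carrier, and Acadm, the medium-chain acyl-CoA dehydrogenase of β-oxidation, were 2.19-fold and 1.86-fold higher in VAT, each without overlap. On the compared libraries alone Fabp5 (adjusted p = 0.113) and Acadm (0.134) did not pass, which left 1 gene of the list, Plin2. The Fabp5 call was lost without lungs mice 2, 3 or 5 or VAT mice 2, 4 or 5 (adjusted p = 0.0643 to 0.125), and the Acadm call without lungs mouse 1 or VAT mice 3 or 4 (adjusted p = 0.0536 to 0.0567). Pparg, the nuclear receptor named after its values were seen because of its known role in VAT Tregs, measured 55.2, 45.8, 51.6, 66.5 and 79.2 CPM in lungs and 181, 340.1, 276, 211 and 335 CPM in VAT. Every VAT library was above every lungs library and the estimate was 4.50-fold, but Pparg did not pass (log2 fold change -2.17 ± 0.96, adjusted p = 0.198). It passed in limma voom with quality weights (adjusted p = 0.000287) and in edgeR on the compared libraries alone (8.82e-05), and not in DESeq2 (0.365). Irf4, a factor of effector Tregs in the same list, had a log2 fold change of -1.93 (adjusted p = 0.0519) and passed in the same pair of fits and in edgeR with the mouse as a block. Limma voom with quality weights also added Rbpj in VAT, and so called 3 genes of this list in VAT and 1 in lungs. Of the 17 tissue Treg transcription factors, Ahr, the aryl hydrocarbon receptor, was the DEG (2.46% of all genes were higher in lungs), at 2.81-fold; its call was lost without lungs mice 1, 3 or 5 or VAT mice 2, 4 or 5 (adjusted p = 0.0616 to 0.101). Sterol synthesis (19 genes) and glycolysis (16 genes) held 1 DEG (3.74% of all genes), Abcg1, the sterol exporter, which was 1.81-fold higher in lungs (adjusted p = 0.0171). It lost its call without lungs mouse 3 or VAT mouse 2 (adjusted p = 0.0768 to 0.0797), in limma voom with quality weights (adjusted p = 0.275) and on the compared libraries alone (0.262).

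Plin2 is a known target of PPAR receptors, which bind repeats of AGGTCA, so the 250 bases before its start are shown (RefSeq, GRCm38.p6, chr4:86670060-86670309, minus strand, printed in the direction of the gene) with AGGTCA, or TGACCT on the other strand, in capitals:
Plin2 promoter: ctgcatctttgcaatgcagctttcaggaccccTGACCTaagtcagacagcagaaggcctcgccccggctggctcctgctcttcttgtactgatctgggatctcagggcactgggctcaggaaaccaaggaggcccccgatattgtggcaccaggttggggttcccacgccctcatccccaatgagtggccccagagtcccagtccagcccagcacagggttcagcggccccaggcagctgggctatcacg
The window holds 1 match and no repeat of it, and 14% of the 32851 windows hold at least 1.

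Of 22 genes induced by T cell receptor signals and stress, 4 were higher in VAT (against 1.28% of all genes) and none in lungs. Their estimates lay on the VAT side for 21 of the 22, and the median log2 fold change was -0.62, against 0 over all genes. The count varied with the fit: 9 were higher in VAT in limma voom with quality weights, 6 in edgeR on the compared libraries alone, 6 with the mouse as a block and 4 in DESeq2, which lost Atf3 (adjusted p = 0.0605) and gained Egr2. Egr1 measured 32.1, 44.2, 40.5, 43.9 and 134 CPM in lungs and 135, 341, 416, 262 and 344 CPM in VAT, with no overlap although lungs mouse 5 stood above the other lungs libraries (5.05-fold, adjusted p = 0.0038). Atf3, a stress-induced repressor, measured 109.5, 173, 93.9, 221 and 175 CPM in lungs and 540.5, 744, 560.2, 299 and 747 CPM in VAT (3.75-fold, adjusted p = 0.0073, and 0.0674 without mouse 5). Jund and Klf4 passed, but not without lungs mouse 5 or VAT mice 2 or 5 (adjusted p = 0.0585 to 0.0842) and not without lungs mice 1, 2, 3 or 5 or VAT mice 2, 3 or 5 (adjusted p = 0.051 to 0.134), respectively. Nr4a1, Fos, Jun, Junb and Dusp1, which report recent stimulation, did not pass (log2 fold changes -0.22, -0.80, -0.25, -0.16 and -0.16), although Fos passed in edgeR on the compared libraries alone. Both tissues were cut up and digested with collagenase IV and DNase before the sort, and the part of handling in these genes was not tested. Of 14 heat shock genes 1 was higher in VAT (1.28% of all genes), Hspa1a, which has a near-identical copy. Its call was lost with all libraries of mouse 2 left out (adjusted p = 0.122). Among 19 effector molecules, 3 were higher in VAT (1.28% of all genes) and 1, Nt5e, in lungs (2.46%). Lgals3, which encodes galectin-3, was 2.95-fold higher in VAT (adjusted p = 0.0138, and 0.124 and 0.126 without mouse 2 or mouse 5), and Gzma rested on VAT mouse 5 (0, 0, 0.47, 0 and 93.7 CPM in VAT, 0 in lungs; call lost without lungs mice 1, 2, 3, 4 or 5 or VAT mouse 5 (adjusted p = 0.0765 to 0.653), and with the mouse as a block). Among the same list, limma voom with quality weights added Fgl2 and Il5 and edgeR on the compared libraries alone added Gzmb, all in VAT. Areg, the repair factor amphiregulin, had a log2 fold change of -0.61 (adjusted p = 0.268).

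**Figure D3:**
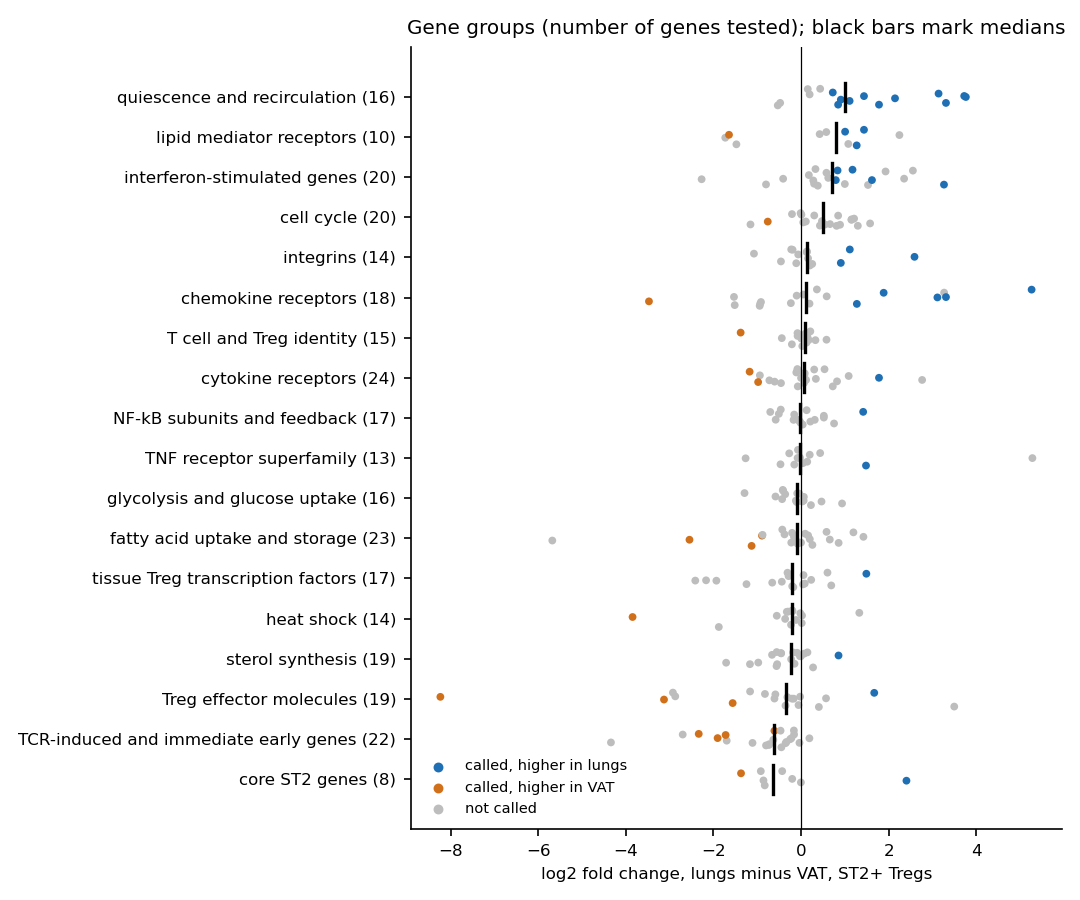
Log2 fold change (lungs minus VAT) of the tested genes of 18 lists, with the number tested in parentheses; blue and orange points are DEGs higher in lungs and in VAT, grey points did not pass, and black bars are list medians. The quiescence and recirculation list has the median farthest to the lungs side, 1.01, and the core ST2 and immediate early lists the medians farthest to the VAT side, -0.63 and -0.62.

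Of 8 genes that the study derived from these libraries as differing between ST2+ and ST2- Tregs outside the skin, 1 passed in each direction (2.46% of all genes in lungs and 1.28% in VAT). The estimates lay on the VAT side for 7 of the 8, and a list chosen on these libraries is not independent evidence. Il1rl1 measured 894, 933, 921, 992 and 793 CPM in lungs and 1047, 1218, 1343, 1183 and 1317 CPM in VAT. All VAT libraries lay above all lungs libraries, by 1.35-fold, below the 1.5-fold minimum (adjusted p = 0.589, and 0.00655 in limma voom with quality weights). Since the sort selected cells by ST2 protein, this level is not independent of the gate. Rln3, a relaxin-family hormone, was 2.59-fold higher in VAT (adjusted p = 0.00897, and 0.0621 and 0.134 without mouse 3 or mouse 5), and Tbc1d4, a regulator of glucose transporter traffic, was higher in lungs. Tbc1d4 measured 80.1, 119.6, 118, 96.9 and 69.5 CPM in lungs and 68.7, 0.59, 8.87, 6.58 and 0.69 CPM in VAT, so that VAT mouse 1 lay just below the lowest lungs library; the log2 fold change was 2.41 with and 4.39 without it (adjusted p = 0.00298 with it). Tbc1d4 did not pass in limma voom with quality weights (adjusted p = 0.0655), on the compared libraries alone (0.166) or with all libraries of mouse 2 left out (0.0617). Klrg1, a receptor of terminally differentiated lymphocytes, Lyn, a SRC-family kinase, and Rab4a, an endosomal GTPase, had log2 fold changes of -0.83, -0.92 and -0.86 without overlap and did not pass (adjusted p = 0.349, 0.148 and 0.469). Klrg1 and Lyn passed in edgeR on the compared libraries alone (0.00615 and 0.0319), Lyn also in limma voom with quality weights (0.0116), and Rab4a in limma voom with the mouse as a block. Gata3, a factor of type 2 and tissue Tregs, and Ptpn13, a phosphatase, did not pass, and the estimate of Ptpn13 was so near 0 that its sign changed with the setting.

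Transcripts of other cell types were mostly low but not evenly spread. Of 6 lung epithelial genes tested, among 13 listed, 3 were higher in lungs (against 2.46% of all genes) and 1, Napsa, in VAT (1.28%). The 3 were Sftpc, Scgb1a1 and Sftpa1, the last lost without lungs mice 1, 3, 4 or 5 or VAT mice 1, 2, 3, 4 or 5 (adjusted p = 0.0503 to 0.0698). Sftpc, a surfactant protein, measured 78.3, 80.6, 14.3, 37.5 and 80.97 CPM in lungs and 0, 0, 1.87, 0 and 0 CPM in VAT, and Scgb1a1, a club cell secretoglobin, 11.8, 34.9, 21.6, 57.3 and 3.98 CPM in lungs and 0 in VAT. Sftpb and Cyp2f2 of the same list were at 0 in all 10 libraries, and the list's summed level was 179, 168, 136, 202 and 169 CPM in lungs and 116, 183, 125, 132 and 124 CPM in VAT, with Epcam its most abundant gene per kilobase in VAT. Of 5 adipocyte genes tested, among 11 listed, Fabp4, which macrophages and endothelium also make, was the DEG, higher in VAT (against 1.28% of all genes). It was at 16.9, 19.6, 27.5, 10.8 and 33.3 CPM in VAT and at 0 in lungs, at least 69.1-fold, and lost its call without lungs mice 1, 2, 3 or 5 (adjusted p = 0.0557 to 0.0583). Plin1, Cidec, Lep, Retn and Adrb3 were at 0 in all 10 libraries and Adiponectin (Adipoq) at 0 in all VAT libraries and at 10.1 CPM in lungs mouse 3 only. Macrophage and dendritic cell genes summed to 218, 203, 340.2, 322 and 312 CPM in lungs and 603, 693, 375, 388 and 871 CPM in VAT, the most abundant being Cd74, and 4 of 16 tested (1.28% of all genes) were higher in VAT. C1qb, a complement chain of macrophages, was at 0 in lungs and 42.4, 3.56, 16.3, 0.94 and 50.7 CPM in VAT, at least 74.1-fold. Csf1r, Spi1 and Flt3 were at 0 in lungs and highest in VAT mouse 2, and Itgax and Marco were at 0 in all 10 libraries. Without VAT mouse 2, 2 of these 4 calls were made. Of the 16 estimates 15 lay on the VAT side and none on the lungs side. DESeq2 and edgeR on the compared libraries alone kept 1 of the 4, C1qb. The first added Cd68 and the second Lyz2 and H2-Eb1, while limma voom with quality weights kept 3 and added C1qa and C1qc, all in VAT. Lyz2, the lysozyme gene of myeloid cells, measured 4.98, 29.6, 6.91, 14.2 and 22.1 CPM in lungs and 85.6, 87.2, 65.8, 58.3 and 101 CPM in VAT without overlap, and did not pass here (adjusted p = 0.234). The Csf1r call was lost with all libraries of mouse 2 or 3 left out (adjusted p = 0.0823 and 0.0981). The Spi1 call was lost without lungs mice 1, 2, 3 or 5 or VAT mouse 2 (adjusted p = 0.053 to 0.0741), and that of Flt3 without lungs mice 1, 2, 3, 4 or 5 or VAT mouse 2 (adjusted p = 0.0626 to 0.297). Mesothelial genes summed to 13.6, 21.8, 4.14, 0.71 and 20.4 CPM in lungs and 33.8, 68.3, 76.1, 101 and 75.7 CPM in VAT, with Msln, Upk3b, Wt1 and Upk1b at 0 throughout. Lrrn4 made up most of the sum in every VAT library and in lungs mice 1, 2 and 5, and was at 0 in lungs mice 3 and 4. No gene of this list passed here. Limma voom with quality weights called Lrrn4 higher in VAT, and its libraries did not overlap between tissues.

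B cell genes summed to 55.7, 28.6, 58.5, 54.5 and 53.5 CPM in lungs and 99.6, 55.8, 37.8, 78.98 and 1202 CPM in VAT. Jchain made up most of the excess of VAT mouse 5 (48.98, 4.15, 11.2, 1.88 and 1049 CPM in VAT). Cd79a and Ms4a1 were also highest in that library, at 41.7 and 28.5 CPM. The Jchain call was lost without VAT mouse 5 (edgeR adjusted p = 0.106). Pecam1, which T cells also express, was the DEG of 9 endothelial genes (2.76-fold higher in lungs, against 2.46% of all genes; adjusted p = 0.061 and 0.0558 without mouse 3 or mouse 5), Dcn that of 10 fibroblast genes (higher in VAT, against 1.28%; call lost without lungs mice 1, 2, 3, 4 or 5 or VAT mice 1 or 2 (adjusted p = 0.0634 to 0.228)), and Kit that of 6 tested mast cell and ILC2 genes (higher in lungs). Kit, the stem cell factor receptor, measured 28.5, 10.9, 25.8, 9.20 and 15.5 CPM in lungs and 0 in every VAT library (at least 61.7-fold higher), while Fcer1a, Ms4a2 and Mcpt8 of that list were at 0 in all 10 libraries. Neutrophil, red blood cell, CD8 and NK cell, and pancreas and epididymis genes held no DEG, with a most abundant neutrophil-list gene, Mmp9, which is also made by other leukocytes, at 189 and 398 CPM in lungs and VAT. NK cell transcripts stood out in VAT mouse 4: the CD8 and NK cell list summed to 41.2, 30.7, 61.2, 65.1 and 35.4 CPM in lungs and 100.03, 61.1, 76.1, 199 and 27.1 CPM in VAT. In that library Ncr1, an NK cell receptor, was at 80.9 CPM and Klrb1c, which encodes NK1.1, at 58.8 CPM. Ncr1 was at 0 in the other 9 libraries, and it and Klre1 fell below the filter on low counts. Without this library 486 DEGs were called, of which 404 were among the 493. Cd8b1 was the most abundant gene of the list per kilobase, and Cd8a and Eomes were at 0 in all 10. The part of other cells in the DEGs described above was not tested.

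The same contrast in ST2- CD44hi Tregs of these tissues and mice shows which of these differences were shared. It gave 213 DEGs (1.61% of genes tested), 123 higher in lungs (0.932%) and 90 in VAT (0.682%). The contrasts share the mice and no library. The VAT ST2- libraries of mice 2, 3, 4 and 5 held 93, 192, 118 and 135 sorted cells, against 220 in VAT mouse 1 and in each lungs ST2- library; the part of these cell numbers in the ST2- contrast and in the interaction was not tested. Of the DEGs, 107 were common to both, 21.7% of those in ST2+ and 50.2% of those in ST2- Tregs, and 105 of the 107 had the same direction. Among the 493 DEGs of ST2+ Tregs, 439 had the same sign in ST2- Tregs (89.0%, against 58.9% of all genes tested), and the median size on the log2 scale was 1.37 in ST2+ and 0.70 in ST2- Tregs; as the genes were chosen on the ST2+ values, the larger size there is in part fixed by that choice. The recirculation list had 11 genes higher in lungs in ST2- Tregs too, against 0.932% of all genes. Ccr7 was at 1193 CPM in lungs and 323 CPM in VAT ST2- Tregs, and S1pr1 at 904 and 452. Plin2 and Il10 were higher in VAT there as well (46.8 against 235 CPM and 49.01 against 133 CPM; edgeR adjusted p = 0.00322 and 0.0183).

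**Figure D4:**
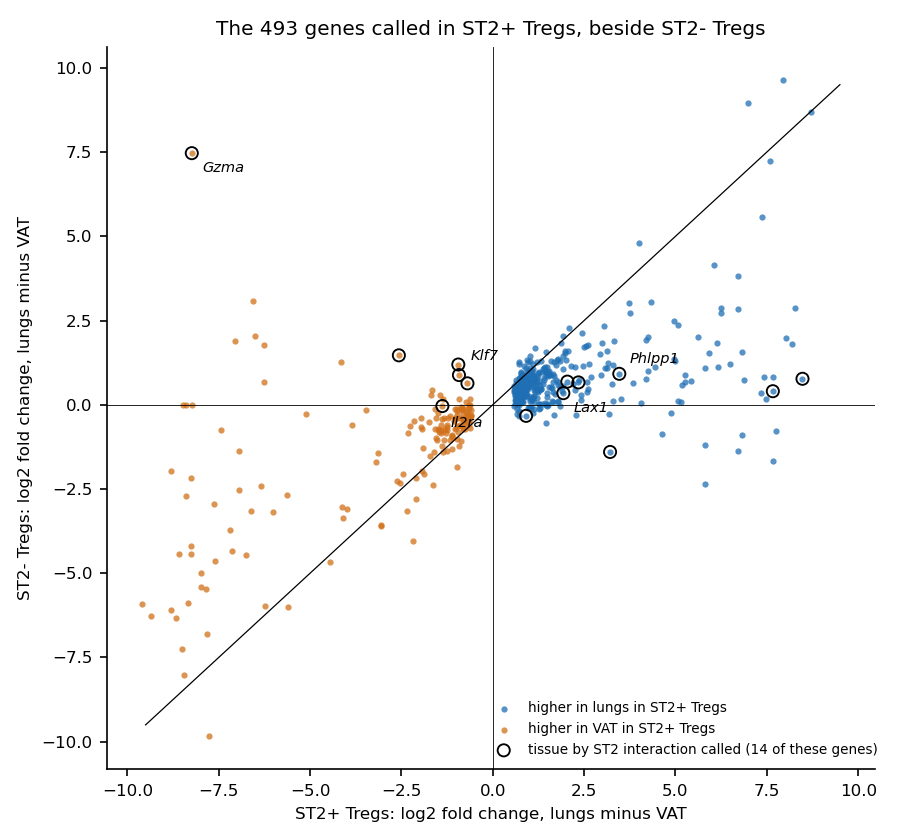
Log2 fold change (lungs minus VAT) of the 493 DEGs of ST2+ Tregs in ST2+ (horizontal) and ST2- (vertical) CD44hi Tregs; the diagonal marks equal change, and circles mark the 14 of these genes that passed the test of the difference between the contrasts. Genes at 0 in a group have fitted values that depend on the prior count; 439 points share their sign.

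The difference between the contrasts was tested as a tissue by ST2 interaction in the same model. It passed for 18 genes (0.136% of genes tested), 8 with a larger lungs-minus-VAT value in ST2+ Tregs (0.0606%) and 10 with a smaller (0.0758%); 1203 genes had an unadjusted p under 0.05. Il2ra was 2.60-fold higher in VAT in ST2+ Tregs but at 262 and 268 CPM in lungs and VAT ST2- Tregs (interaction -1.34 ± 0.23, log2 ± SE; adjusted p = 0.00127). Txnip, an inhibitor of glucose uptake, was at 304 and 491 CPM in lungs and VAT ST2+ Tregs and at 509 and 328 CPM in ST2- Tregs (-1.33 ± 0.22, adjusted p = 0.00127). Klf7, a Krüppel-like factor, and Cpm, a membrane carboxypeptidase, turned in the same way (-2.14 ± 0.38 and -1.10 ± 0.20). Slamf6 was higher in lungs in both, at 565 against 138 CPM in ST2+ and 848 against 527 CPM in ST2- Tregs, and more so in ST2+ Tregs (1.35 ± 0.25, adjusted p = 0.00306). With single ST2+ libraries or whole mice left out, Il2ra and Txnip passed in 15 of 15 fits and Klf7, Cpm and Slamf6 in 14 of 15. Single ST2- libraries were not left out. In edgeR on the compared libraries alone, Il2ra and Txnip did not pass (adjusted p = 0.117 and 0.13). The count depends on the fit: DESeq2 called 95 genes, edgeR on the compared libraries alone 1, Fam69a, and a test against the 1.5-fold minimum 0.

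The levels in the other ST2+ tissues are a description and were not tested; neighbours are called within their spread where mean ± SD ranges overlap. Ccr7 was highest in lungs at 647 ± 103 CPM (mean ± SD), followed by skin (377 ± 98.3), blood (245 ± 132), spleen (223 ± 38.05), colon (208 ± 169.9) and VAT (64.8 ± 58.4). From skin to VAT each neighbour lay within the spread of the next. S1pr1 was at 785 ± 69.2 CPM in blood, 624 ± 39.97 in lungs, 378 ± 62.5 in spleen, 276 ± 38.7 in colon, 229.99 ± 88.4 in VAT and 169.8 ± 53.2 in skin, with colon and VAT, and VAT and skin, within their spread. Slamf6 ran from 821 ± 113 CPM in blood through 565 ± 27.5 in lungs, 507 ± 63.03 in spleen, 251 ± 47.01 in colon and 194 ± 40.97 in skin to 138 ± 58.7 in VAT. For it, lungs and spleen, colon and skin, and skin and VAT lay within their spread. Il10 was at 4.64 ± 3.47, 44.2 ± 13.02 and 55.6 ± 36.99 CPM in blood, spleen and lungs and at 311 ± 59.1, 490.3 ± 197 and 496 ± 178 CPM in skin, VAT and colon. Spleen and lungs lay within their spread, and so did the neighbours from skin to colon. Plin2 stood apart in VAT at 577 ± 196 CPM, with the other ST2+ tissues from 55.9 ± 12.7 CPM in blood to 102 ± 62.5 CPM in colon. Ccr1 followed the order VAT (324 ± 89.3 CPM), skin (181 ± 48.2), colon (139 ± 28.8), lungs (28.9 ± 12.6), spleen and blood (5.10 ± 7.07 and 4.85 ± 5.65), with skin and colon, and spleen and blood, within their spread. Il1rl1 itself was highest in skin (1514 ± 113 CPM), followed by VAT, lungs, colon (612 ± 76.3), blood (547 ± 48.8) and spleen (281 ± 37.4), with colon and blood within their spread.

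**Figure D5:**
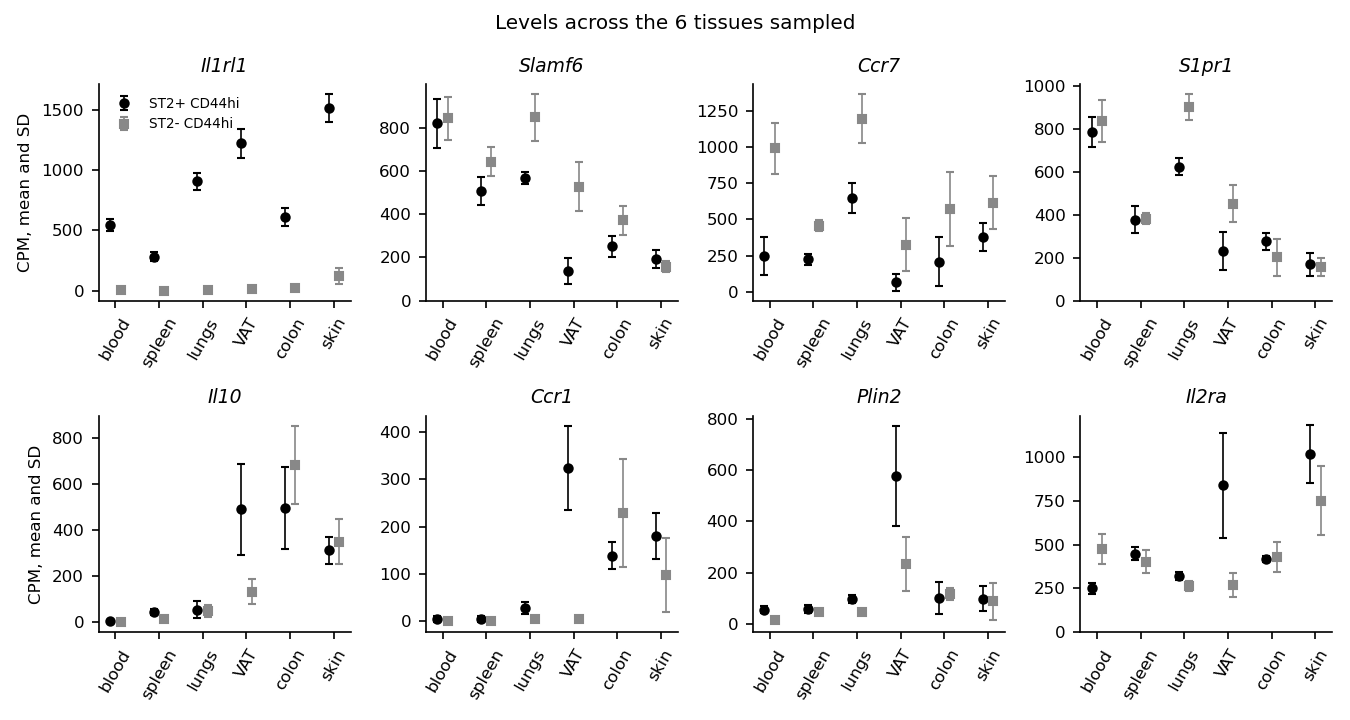
CPM of 8 genes in ST2+ CD44hi (black circles) and ST2- CD44hi (grey squares) Tregs of 6 tissues, as the mean and SD of 5 libraries (4 for blood ST2+ and 3 for colon ST2+). Among the ST2+ groups, mean Ccr7 is lowest in VAT and highest in lungs, Slamf6 is higher in blood, spleen and lungs than in VAT, colon and skin, and Plin2 and Ccr1 are highest in VAT; Ccr7 is higher in lungs ST2- than in lungs ST2+ Tregs.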

How the data were processed

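Full-length cDNA of 220 sorted Tregs per library, or 55 to 202 in 8 libraries (4 of VAT ST2- and 4 of blood), was sequenced as single-end reads. Per the labels and the study's methods, the authors demultiplexed reads with CASAVA 1.8.2, aligned them with STAR to GRCm38 and counted reads per gene with HTSeq 0.4.1, and they deposited raw, unnormalised counts in 53465 gene rows, of which 53274 were found in GENCODE M21. For counting mode, strand and duplicate handling, the setting is not given in the sources used here. Had duplicate reads been removed, levels and folds of abundant genes would be understated. Library totals of the 67 kept libraries ran from 1304560 to 2759926 counts, so 1 CPM is about 2 counts. The 3 libraries with 1000000 counts or fewer (ST2+ blood mouse 1 and colon mice 2 and 5) were left out.

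The 13191 protein-coding genes that reached 1 CPM in 10% or more of the libraries were fitted with edgeR 4.0.16 in R 4.3.3 (TMM factors, quasi-likelihood F test, Benjamini-Hochberg adjustment over all genes), with 14 groups sharing a spread estimate. DEGs had a change of at least 1.5-fold and an adjusted p of at most 0.05. The study's own test, limma voom with quality weights (limma 3.58.1), DESeq2 1.42.0, other filters and factors and a mouse block were alternatives. So was omission of each of the 10 ST2+ lungs and VAT libraries, or of a mouse with all its libraries. P-values near 1 were rounded and SEs of estimates near 0 left out, since they moved with the numerical library. The fit was tested on simulated data in which 200 genes were changed. It recovered 25.4% of 2-fold, 70.15% of 3-fold and 81.8% of 4-fold changes, with 8 false calls. The simulated counts were drawn from the fit's own spread estimates without a mouse effect, and genes at low levels were not among those changed. These rates hold for that setting and not for every gene of the real data. Named genes were the 15 DEGs with the smallest adjusted p per direction among those with the same side in all 5 mice, DEGs of the gene lists, Il1rl1, Foxp3, the core ST2 genes and the 5 leading interaction genes. The comparison and lists were chosen with earlier results of these data known. Same-numbered libraries came from the same mouse; their deviations correlated at -0.04 to 0.05 (5 pairs, 9243 genes).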

Additional observations from a re-analysis of the deposited data

Results flagged for a closer look

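In groups of 5 libraries, a value was listed when its gap to the nearest library, divided by the range of the group, exceeded Dixon's critical value of 0.71. This held for 24 of 186 groups tested, and chance gives about 1 in 20. In VAT, mouse 5 was highest for Ccr1 (479.7 CPM), Il2ra (1352 CPM), Socs1 (176 CPM), Ltb4r1 (723 CPM), Gzma (93.7 CPM) and Jchain (1049 CPM). VAT mouse 2 was highest for the myeloid genes Flt3 (68.8 CPM) and Spi1 (45.1 CPM). VAT mouse 1 was highest for Tbc1d4 (68.7 CPM) and Dcn (65.0 CPM), mouse 3 for Foxp3 (243 CPM) and Sftpc (1.87 CPM) and mouse 4 for Ccr7 (167 CPM).

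In lungs, mouse 2 was highest for Il2ra (361 CPM) and Nt5e (657 CPM), mouse 4 for Gpr183 (341 CPM), Klf4 (77.8 CPM) and Dcn (1.42 CPM), mouse 3 for Il10 (121 CPM) and Ly6c2 (0.46 CPM), mouse 5 for Egr1 (134 CPM) and mouse 1 for Phlpp1 (149 CPM). Plp2 was lowest in lungs mouse 3 (40.5 CPM) and Ptger2 in lungs mouse 1 (85.5 CPM). Ly6c2 has a close paralog.

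The lungs-minus-VAT difference itself passed as different between ST2+ and ST2- Tregs for 9 named genes (edgeR's interaction test, adjusted over 13191 genes), none of which passed in edgeR on the compared libraries alone. The log2 difference of ST2+ minus ST2- was 1.68 for Cd96, 2.54 for Phlpp1, 1.59 for Lax1 and 1.35 for Slamf6. It was -1.34 for Il2ra, -1.33 for Txnip, -2.14 for Klf7 and -1.10 for Cpm. For Gzma it was -15.70, a fitted value of a gene at 0 in whole groups that depends on the prior count. Not all were stable: Phlpp1 and Lax1 did not pass in limma voom with quality weights (adjusted p = 0.297 and 0.198), nor did Gzma (0.103), which also failed with the mouse as a block in edgeR (0.108). With single ST2+ libraries or whole mice left out, Cd96 and Lax1 passed in 12 of 15 fits and Gzma in 4 of 15.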

How the results depend on the processing

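The 493 DEGs of ST2+ Tregs became 273 with only the compared groups, 317 with all 70 libraries and 122 when tested against the 1.5-fold minimum, and ranged from 217 to 605 with a library or mouse left out. Those higher in lungs (324) became 133 and 88 with the compared groups and the 1.5-fold test, and ranged from 158 to 415 with omissions. Those higher in VAT (169) became 285 in limma voom with quality weights, 98 with all 70 libraries and 34 in the 1.5-fold test, and ranged from 59 to 196. The share of DEGs higher in lungs was 65.7%, against 50.8% in limma voom and 48.7% with the compared groups. The 213 DEGs of ST2- Tregs became 354 in DESeq2, 448 in limma voom, 119 with all 70 libraries and 49 in the 1.5-fold test, and ranged from 100 to 225. The 18 interaction genes became 95 in DESeq2, 1 with the compared groups and 0 in the 1.5-fold test (851 at an unadjusted p under 0.05), and ranged from 4 to 26. With the mouse as a replicate block, edgeR gave 540, 249 and 26 genes for the 3 tests, and limma voom 306 higher in VAT and 475 in ST2- Tregs; among the listed genes the block in edgeR ended the calls of Flt3 and Gzma and added Irf4, Ccr10, Il17rb, Il6st, Fosb, Ier3, Nfkb2 and Nfkbid. Ptpn13, near 0, changed sign to 0.0031 with the block, 0.0010 with all 70 libraries, 0.12 and 0.15 without mice 3 and 4, 0.08 without lungs mouse 2, and 0.15 without VAT mouse 3 or 4 (range over omissions, -0.17 to 0.15). Of other genes whose calls depended on single libraries, Ccr6, Cxcr5, Dcn, Gzma and Ptger4 also failed on the compared libraries alone, Cxcr5, Dcn, Gzma and Jchain in limma voom with quality weights, and Sftpa1 in DESeq2. The causes were not tested. At about 2 counts per CPM, genes near 1 CPM are limited by depth.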
